A study of Mus musculus with 12 samples.

Results

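The genes described here were the chemokines and chemokine receptors of the mouse liver. They were all genes of the count table whose mouse symbol starts with Ccl, Cxcl, Ccr or Cxcr followed by a number and at most 1 letter. The rule took 54 of the 27179 genes, which were 25 CC ligands, 13 CXC ligands, 10 CC receptors and 6 CXC receptors. The rule itself reads symbols alone. Livers came from 12 male young adult mice, 3 in each of 4 groups, and each mouse gave 1 bulk RNA-seq library. The diet, either chow (CD) or low in protein (LPD), was given from before the injection until harvest. By hydrodynamic tail vein injection they received either empty vector (Vec) or plasmids for c-MET of human origin and for ΔN90-β-catenin, a stable form that lacks its N terminus, in a system with Sleeping Beauty transposase, which inserts the plasmid cargo into hepatocyte genomes. On each diet 3 mice got Vec and 3 got the c-MET/β-catenin plasmids, the latter called the CD oncogene and LPD oncogene groups, and all 4 groups were injected by this system.

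In this model the EF1α promoter drives the oncogenes in whichever hepatocytes took up plasmid, so a liver is a mixture of tumor and host tissue. All mice were taken when the CD oncogene mice reached their end point, so LPD oncogene mice were taken before theirs, and diet cannot be told apart from tumor stage in the oncogene livers. The study's text gives the background strain in 2 ways, as C57/Bl3 and as a mix of 129/Ola and C57BL/6. The labels name the cell type as hepatocyte, yet RNA came from snap-frozen whole liver tissue. Hepatocyte markers were the largest part (69921 to 112030 counts scaled to the library size, CPM, summed over 7 genes), and markers of Kupffer cells (88.4 to 326 CPM) and endothelial cells (98.2 to 207 CPM) were measured in every library. The fold changes below are therefore those of a tissue, in which fewer cells of a type and less RNA per cell cannot be told apart.

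Chemokines are small secreted proteins that steer leukocytes along concentration gradients, and their receptors are G protein coupled receptors on the responding cells. CC ligands such as Ccl2 draw monocytes and T cells, CXC ligands such as Cxcl1 draw neutrophils, and Cxcl9 and Cxcl10 are induced by interferon and draw activated T and NK cells. A homeostatic set, of which Cxcl12 is the best known, is made constantly by stromal cells. In the liver, Kupffer cells, endothelial cells, stellate cells and hepatocytes all can make chemokines, and monocytes that follow Ccl2 into the tissue become macrophages there.

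Libraries held 19476209 to 31990267 counts. CD Vec replicate 2 stood apart from the others on the second principal component (60 against -24.2 to 18.9 for the rest, 9.82% of the variance). The header of the count table carries 1 number per column, which the labels do not explain, and these numbers fall into 3 runs. CD oncogene replicates 1 and 2 formed run 1 alone. Run 3 held LPD Vec replicate 1 with CD Vec replicates 1 and 2, and the other 7 libraries formed run 2. Whether the runs are batches is unknown, and what the runs do to each comparison is given below.

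Of the 54 genes, 48 had at least 1 count, and Ccl1, Ccl21a, Ccl21b, Ccl21c, Ccl21d and Ccr8 had 0 counts in all 12 libraries. At least 10 counts in 3 or more libraries were reached by 30 genes (12 CC ligands, 8 CXC ligands, 6 CC receptors and 4 CXC receptors), and 24 fell short. The filter of the fit across all genes kept 27 of them, and Ccl3, Ccl22 and Ccr7 were tested only under the filter of 10 counts in 3 libraries. Of the 27 tested, Ccl4, Ccl7, Ccl8, Ccr1 and Cxcl13 reached 10 counts in 3 libraries only through the CD oncogene livers, so those 5 had to differ between the groups. The same holds for Ccl3, Ccl22 and Ccr7, which reached 10 counts in those 3 livers alone, so their tests are no support for a difference. Per kb of exon, Cxcl12 had the highest level (33.5 CPM per kb over all libraries), followed by Ccl9 (11.4), Ccl6 (7.26), Cxcl1 (5.74) and Cxcl9 (5.50). The receptor Ccr2 was lower, at 0.389 CPM per kb. These means pool all groups, and the order differs by group. In CD Vec, Ccl6 (2.25 CPM per kb) lay below Cxcl1 (4.18), and in CD oncogene above it (20.1 and 12.4).

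In CD oncogene against CD Vec, 15 of the 27 genes tested were higher and 1 was lower at an adjusted p under 0.05 (edgeR quasi-likelihood test, Benjamini-Hochberg over all 13947 genes tested), against 18.7% of all genes higher and 16.7% lower. Among the 22 genes that did not depend on the CD oncogene livers to be tested, 10 were higher and 1 lower. The median log2 fold change of the 27 genes was 1.57, also with Ccl8 at its lower bound, beside -0.01 for all genes. These 27 include the 5 that had to be high in CD oncogene livers to be tested, and those lie above that median. In LPD oncogene against LPD Vec, 3 were higher (1.15% of all genes) and 0 lower (0.165% of all genes). In that comparison 9 of the 27 had an unadjusted p under 0.05, as had 11.1% of all genes, DESeq2 called 5 of them higher and 497 of all genes, and the median was 0.57 beside 0.01.

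**Figure D1:**
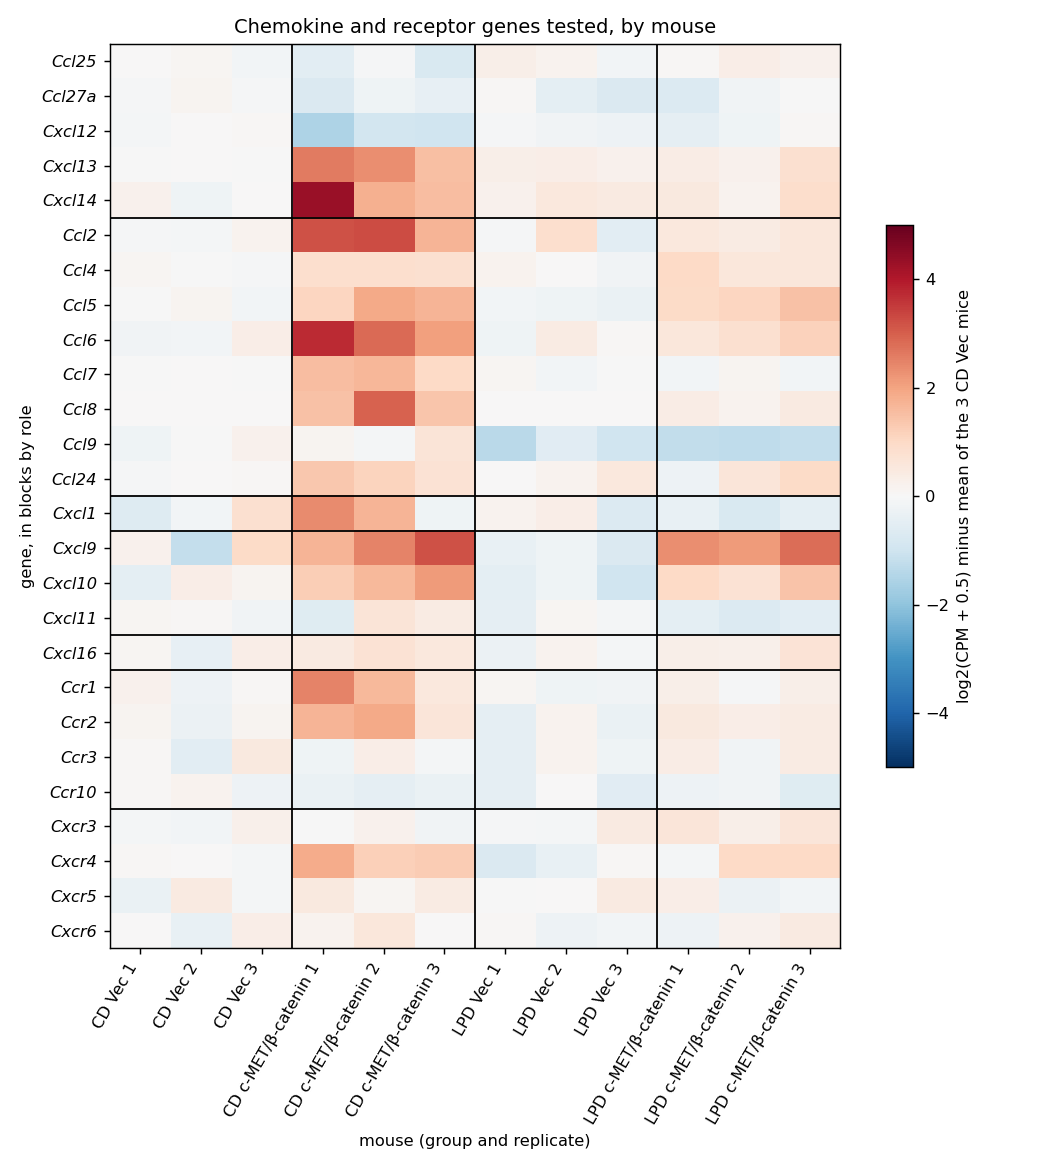
Each row is 1 of 26 genes tested, in blocks by role, and each column is 1 mouse. Color gives log2(CPM + 0.5) minus the mean of the 3 CD Vec mice, from blue (lower) to red (higher). The red block under CD oncogene covers Cxcl13, Cxcl14, Ccl2, Ccl6, Ccr1 and Ccr2, while Cxcl9, Cxcl10 and Ccl5 are red in the oncogene mice of both diets.

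When the oncogene livers of both diets were compared with each other, 10 genes were lower on LPD (11.3% of all genes were) and 1 was higher (8.66% of all genes). Among the 22 genes, 6 were lower and 1 higher. This comparison and the one on CD share the 3 CD oncogene libraries, so their values stand side by side and neither is support for the other. In the vector livers, 0 of the 27 genes passed between LPD and CD (0.186% of all genes were higher and 0.122% lower), 1 had an unadjusted p under 0.05, as had 9.87% of all genes, and DESeq2 called 1 of them lower and 339 of all genes. The difference between the diets in the oncogene effect, the interaction, passed above 0 for 1 gene (4.49% of all genes) and below 0 for 2 (4.42% of all genes). Scaling by library totals alone shifted the all-gene median of the log2 fold change, to 0.28 on CD and to 0.12 on LPD, and kept each of the calls named here.

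**Figure D2:**
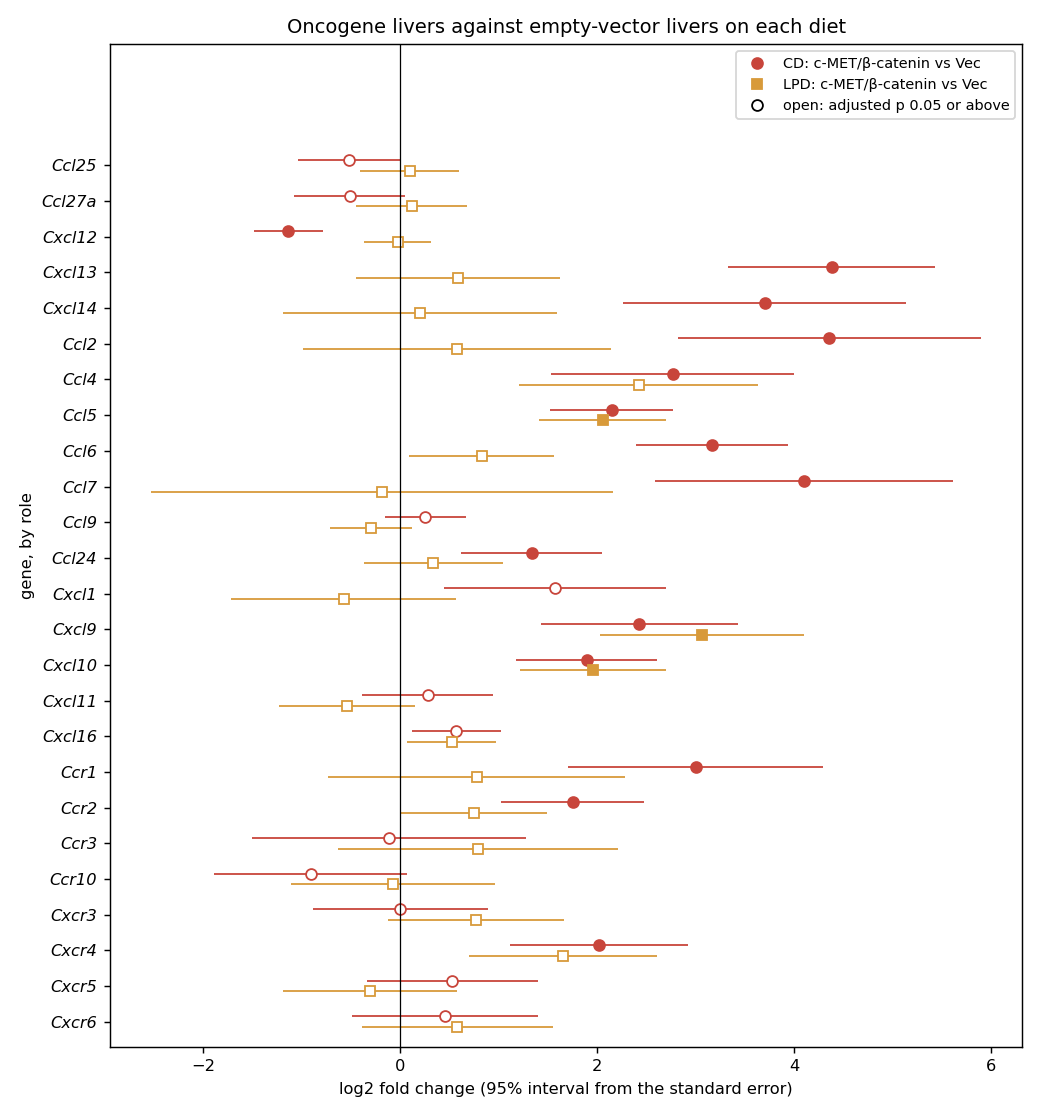
Log2 fold change of oncogene over vector livers, with red circles for CD and orange squares for LPD, for 25 genes tested. Bars are 95% intervals from the standard error by a normal approximation, which are narrower than the test would give. Filled symbols have an adjusted p under 0.05, and Ccl8 is left out because it had 0 counts in every vector liver. Red and orange lie together for Cxcl9, Cxcl10 and Ccl5, and apart for Cxcl13, Cxcl14, Ccl2 and Ccl6.

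Among the homeostatic ligands, Cxcl12, which binds Cxcr4 and holds leukocytes and progenitors in their niches, was the one gene of the 27 that was lower in the CD oncogene livers. Its level was 319, 347 and 351 CPM in CD Vec and 115, 178 and 169 CPM in CD oncogene. The groups did not overlap, and Cxcl12 fell by 1.14 on the log2 scale (SE 0.18, adjusted p = 0.000542). LPD Vec held 326, 299 and 287 CPM and LPD oncogene 250, 290 and 355 CPM. These last groups overlapped (log2 fold change -0.03, SE 0.18, adjusted p = 0.981). Between the oncogene livers Cxcl12 was higher on LPD by 0.95 (SE 0.18, adjusted p = 0.00389), and the interaction was 1.11 (SE 0.25, adjusted p = 0.0213).

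The interaction of Cxcl12 missed the threshold without LPD Vec replicate 2 (adjusted p = 0.066), without LPD Vec replicate 3 (0.0591) or without LPD oncogene replicate 3 (0.0585), at log2 values of 1.09, 1.07 and 0.97. The window around its start is shown because it is the most abundant chemokine here and the model expresses β-catenin, which acts through TCF factors. It lies at chr6:117168285-117168584 on the + strand (RefSeq, GRCm38.p6), from 250 bases before the start to 50 bases after it. Capitals mark the 1 match to the TCF core letters CTTTGAT, read on the other strand, at -163 to -157 from the start.
Cxcl12: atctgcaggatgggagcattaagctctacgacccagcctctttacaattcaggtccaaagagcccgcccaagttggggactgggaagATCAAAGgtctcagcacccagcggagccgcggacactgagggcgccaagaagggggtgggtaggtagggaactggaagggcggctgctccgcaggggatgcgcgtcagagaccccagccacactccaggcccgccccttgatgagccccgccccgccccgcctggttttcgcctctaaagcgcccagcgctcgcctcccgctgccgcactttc

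The TCF core letters were found on either strand in 3.73% of 32851 promoter windows of this length. They were in 1 of the 38 chemokine and receptor genes that had a window, which is 1 of 45 windows (2.22%). A match is a description of letters and not a bound site.

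Cxcl13, which draws B cells through Cxcr5, was near the floor in vector livers. It had to be high in the CD oncogene livers to be tested, so its p-values are no support for a difference. It had 0.102, 0.114 and 0.104 CPM in CD Vec, which are 2 counts in each library, and 3.21, 2.53 and 1.20 CPM in CD oncogene. All 3 CD oncogene mice were above all others. Summed over the mice, 205 counts stood against 6, a ratio of 22.5 after scaling (95% exact interval 10.1 to 61.9, counting error only), with adjusted p = 0.000121. LPD Vec held 0.240, 0.253 and 0.205 CPM and LPD oncogene 0.293, 0.211 and 0.569 CPM. The LPD groups overlapped, and between the oncogene livers Cxcl13 was lower on LPD (log2 fold change -2.70, SE 0.44, adjusted p = 0.00193). The interaction was -3.79 (SE 0.79, adjusted p = 0.016), and -3.73 without LPD Vec replicate 2, where it missed the threshold (adjusted p = 0.0532).

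Cxcl14, a ligand of epithelial and stromal cells, rested strongly on 1 mouse. It measured 1.12, 0.682 and 0.885 CPM in CD Vec and 27.3, 4.28 and 3.48 CPM in CD oncogene. The groups did not overlap, but replicate 1 was far above the other two. The log2 fold change was 3.70 (SE 0.73, adjusted p = 0.00246), and 2.10 without that replicate (adjusted p = 0.000962). LPD Vec held 1.10, 1.48 and 1.38 CPM and LPD oncogene 1.47, 1.05 and 2.06 CPM, which overlapped. Between the oncogene livers Cxcl14 fell by 2.95 on LPD (SE 0.69, adjusted p = 0.0118), and by 1.35 without CD oncogene replicate 1 (adjusted p = 0.0158).

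The other homeostatic ligands tested did not pass in any comparison. Ccl27a, known from skin and a ligand of Ccr10, had 3.72, 4.32 and 3.80 CPM in CD Vec and 2.17, 3.30 and 2.85 CPM in CD oncogene (adjusted p = 0.188). In LPD Vec it had 4.13, 2.66 and 2.15 CPM and in LPD oncogene 2.30, 3.47 and 3.89 CPM. Ccl25, the gut ligand of Ccr9, lay between 1.31 and 3.44 CPM. Ccl27a has near-identical copies, so its counts are uncertain.

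Of 16 CC ligands that attract monocytes and lymphocytes, 8 were tested. Of these, Ccl4, Ccl7 and Ccl8 had to be high in CD oncogene livers to be tested, and of the other 5 all but Ccl9 were higher there, beside 18.7% of all genes. Ccl2, the main ligand of Ccr2 and the signal by which Ly6c-high monocytes leave the marrow, had 0.204, 0.171 and 0.312 CPM in CD Vec and 6.15, 6.41 and 1.87 CPM in CD oncogene. These groups did not overlap (log2 fold change 4.36, SE 0.79, adjusted p = 0.00133). On LPD the vector livers held 0.192, 0.803 and 0 CPM and the oncogene livers 0.538, 0.456 and 0.569 CPM. The LPD groups overlapped (log2 fold change 0.57, adjusted p = 0.899), and Ccl2 was lower in LPD than in CD oncogene livers (difference -3.20 on the log2 scale, SE 0.69, adjusted p = 0.00818). Its interaction was -3.78 (SE 1.14) and did not pass (adjusted p = 0.0613).

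Ccl7 and Ccl8, the neighbours of Ccl2 on chromosome 11, were almost absent elsewhere. Ccl7, another ligand of Ccr2, had 3 counts in all over the CD Vec mice and 86 over the CD oncogene mice, with 1.13, 1.26 and 0.599 CPM in the latter. The ratio was 18.8 (95% exact interval 6.23 to 93.1, counting error only), with adjusted p = 0.00169. Ccl7 had 3 counts over the LPD oncogene mice as well, all of them in replicate 2, and the ratio of CD to LPD oncogene livers was 24.0 (7.94 to 119, adjusted p = 0.00244). The fitted log2 difference moved from -4.44 to -7.50 without that replicate, and with so few counts it is no bound. Ccl8, a ligand of Ccr8 in the mouse, had 0 counts in all 6 vector livers. It measured 0.866, 3.35 and 0.824 CPM in CD oncogene, at least 10.5-fold above the floor of 3 counts per library in CD Vec (adjusted p = 0.00231). LPD oncogene held 0.147, 0.0702 and 0.175 CPM, which is around that floor, and Ccl8 was lower there than in the CD oncogene livers (log2 fold change -3.66, SE 0.77, adjusted p = 0.0142). Without LPD oncogene replicate 2 this difference missed the threshold (-3.32, adjusted p = 0.0562), and without CD oncogene replicate 2 it was -2.68 (adjusted p = 0.0213).

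Ccl6 and Ccl9 are rodent ligands of Ccr1 that macrophages make in quantity, and their values differed although the genes lie next to each other. Ccl6 had 3.41, 3.58 and 5.10 CPM in CD Vec and 59.2, 31.0 and 18.2 CPM in CD oncogene. The groups were well apart (log2 fold change 3.16, SE 0.39, adjusted p = 0.000147). LPD Vec held 3.31, 5.41 and 4.15 CPM and LPD oncogene 6.21, 7.37 and 9.31 CPM. The LPD groups did not overlap either, but the difference of 0.83 (SE 0.38) did not pass (adjusted p = 0.449). Ccl6 was lower in LPD than in CD oncogene livers (-2.24, SE 0.37, adjusted p = 0.00223), and its interaction was -2.34 (SE 0.53, adjusted p = 0.023).

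The interaction of Ccl6 lost its call without LPD Vec replicate 2 (-2.14, adjusted p = 0.0713), LPD Vec replicate 3 (-2.35, adjusted p = 0.0512) or LPD oncogene replicate 1 (-2.20, adjusted p = 0.0537), and with a replicate block (-2.31, adjusted p = 0.0503). Ccl9, in contrast, had similar levels in both CD groups. It measured 37.9, 43.7 and 51.7 CPM in CD Vec and 48.8, 41.6 and 68.4 CPM in CD oncogene, which overlapped (adjusted p = 0.376). On LPD it measured 17.2, 29.2 and 21.8 CPM in vector livers and 18.5, 18.0 and 19.0 CPM in oncogene livers. Both LPD groups thus lay below both CD groups. The difference passed between the oncogene livers (log2 fold change -1.52, SE 0.22, adjusted p = 0.00106) and missed the threshold between the vector livers (-0.96, SE 0.21, adjusted p = 0.0801). The difference between these diet effects is the interaction, -0.55 (SE 0.30, adjusted p = 0.269).

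**Figure D3:**
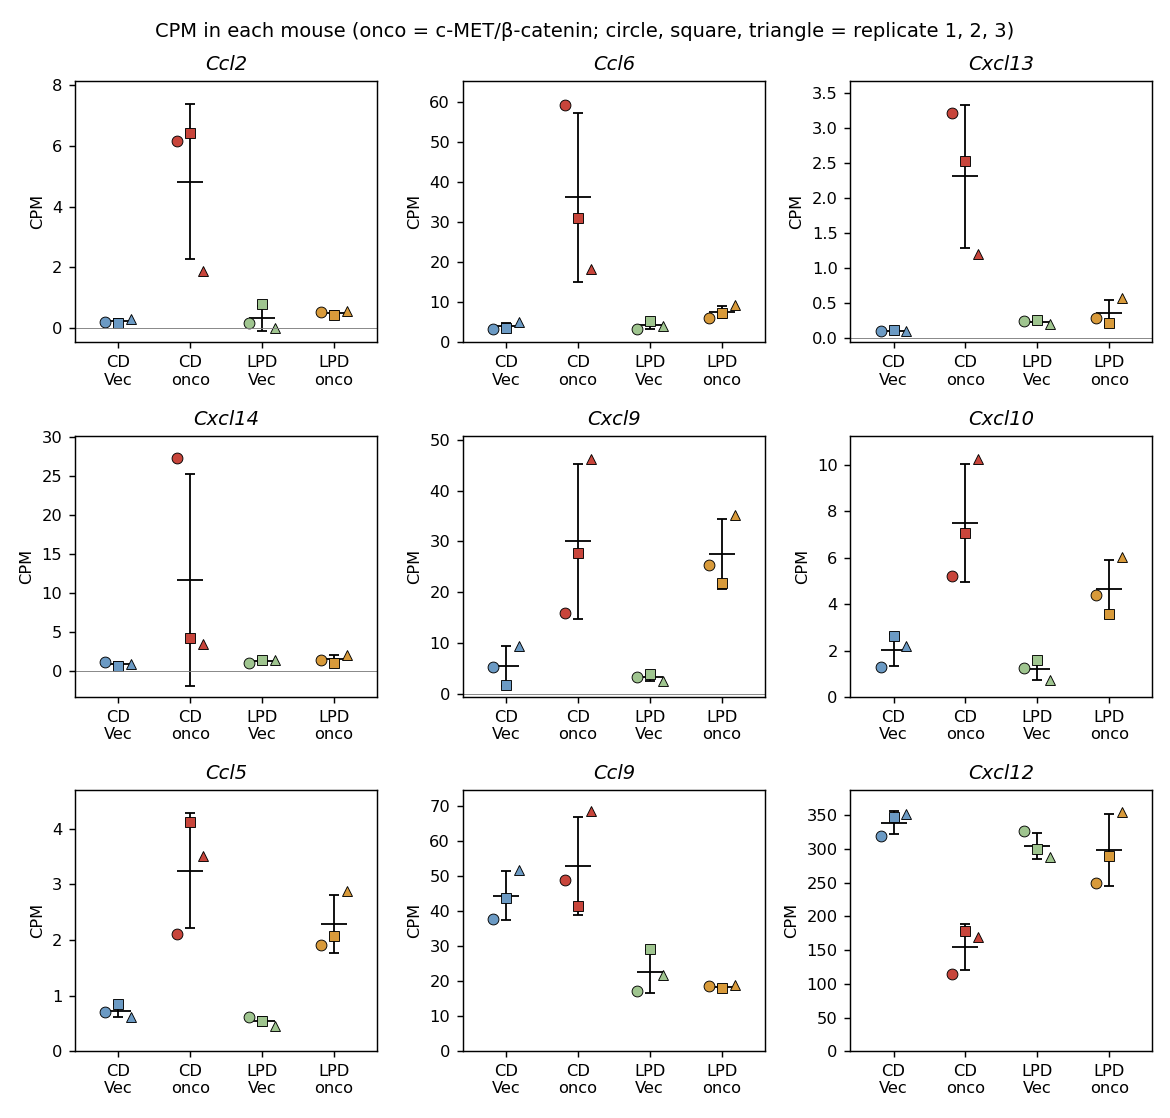
CPM of 9 genes in each mouse by group, with the group mean (dash) and SD (bars) and onco standing for c-MET/β-catenin. In the panels of Ccl2, Ccl6, Cxcl13 and Cxcl14 the CD oncogene mice stand alone, in those of Cxcl9, Cxcl10 and Ccl5 both oncogene groups lie above both vector groups, and Cxcl12 is lower in the CD oncogene mice alone.

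Ccl5, Ccl4 and Ccl3 are ligands that T cells, NK cells and macrophages make. Ccl5 had 0.713, 0.853 and 0.625 CPM in CD Vec and 2.11, 4.12 and 3.52 CPM in CD oncogene. It had 0.624, 0.549 and 0.462 CPM in LPD Vec and 1.91, 2.07 and 2.89 CPM in LPD oncogene. On both diets every oncogene mouse was above every vector mouse. The log2 fold change was 2.14 on CD (SE 0.32, adjusted p = 0.000419) and 2.06 on LPD (SE 0.33, adjusted p = 0.0103), and the interaction of -0.09 (SE 0.47) had an adjusted p of 0.931. Its 95% interval, by a normal approximation that is narrower than the test, ran from -1.02 to 0.84 on the log2 scale.

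Ccl4 had few counts. It measured 0.102, 0.0569 and 0.0521 CPM in CD Vec and 0.520, 0.530 and 0.487 CPM in CD oncogene, a ratio of 7.23 over 44 and 4 counts (2.63 to 27.7, adjusted p = 0.00521). On LPD the ratio was 5.52 over 31 and 5 counts (2.13 to 18.2, adjusted p = 0.0902). Ccl3, tested only because it was high in CD oncogene livers, had log2 fold changes of 2.82 on CD (SE 0.66, adjusted p = 0.00612) and 2.21 on LPD (SE 0.70, adjusted p = 0.196). Annotated transcripts of Ccl3 and Ccl4 overlap, so reads there may be shared.

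Ccl22 and Ccl17, which dendritic cells make for Ccr4, were low. Ccl22 had 11, 30 and 15 counts in CD oncogene and at most 9 in any other library, with a log2 fold change on CD of 2.63 (SE 0.68, adjusted p = 0.0108, again tested only because it was high there). Ccl17 had 12, 9 and 0 counts in CD oncogene and at most 2 elsewhere, and was not tested. Ccl24, which draws eosinophils through Ccr3, had 1.32, 1.42 and 1.46 CPM in CD Vec and 4.33, 3.63 and 2.62 CPM in CD oncogene. These did not overlap (log2 fold change 1.33, SE 0.36, adjusted p = 0.0139). On LPD it lay between 1.44 and 2.26 CPM in vector and between 1.08 and 3.19 CPM in oncogene livers, which overlapped (adjusted p = 0.85).

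Of the neutrophil ligands, which act on Cxcr2, Cxcl1 was the one with enough counts to be tested. It had 4.38, 6.48 and 12.7 CPM in CD Vec and 39.0, 24.6 and 6.06 CPM in CD oncogene. The third oncogene mouse lay within the vector range, and the difference of 1.57 (SE 0.57) did not pass (adjusted p = 0.0532). LPD Vec held 8.20, 9.08 and 4.21 CPM and LPD oncogene 5.47, 4.0 and 5.03 CPM. Between the oncogene livers Cxcl1 was lower on LPD (-2.27, SE 0.59, adjusted p = 0.02). The call did not hold without CD oncogene replicate 1 (-1.66, adjusted p = 0.0752) or without any 1 of the 3 LPD oncogene replicates (-2.36 to -2.14, adjusted p = 0.0548 to 0.068).

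Cxcl2, Cxcl3 and Cxcl5 had too few counts for the fit. Cxcl2 had 74, 16 and 6 counts in CD oncogene and at most 9 elsewhere. Cxcl3 had 8, 18 and 4 counts in CD oncogene and 0 in all other libraries, at least 2.33-fold above the floor of 3 counts per library in CD Vec. Cxcl5 had 8, 13 and 4 counts there and at most 2 elsewhere. These genes share a neighbourhood on chromosome 5, and the windows of Cxcl1, Cxcl2 and Cxcl3 each held the NF-κB consensus motif, the site of the factor through which TNF and IL-1 act. The window of Cxcl1 is shown as the most abundant of them, at chr5:90890995-90891294 on the + strand (RefSeq, GRCm38.p6). Capitals mark the NF-κB motif, found in overlapping frames at -71 to -61 from the start.
Cxcl1: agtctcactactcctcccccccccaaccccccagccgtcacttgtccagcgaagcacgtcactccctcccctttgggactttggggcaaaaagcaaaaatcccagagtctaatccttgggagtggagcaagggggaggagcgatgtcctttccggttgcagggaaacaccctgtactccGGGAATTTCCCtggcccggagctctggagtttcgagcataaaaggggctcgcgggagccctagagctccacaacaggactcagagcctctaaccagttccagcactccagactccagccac

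The interferon-inducible ligands Cxcl9 and Cxcl10, both ligands of Cxcr3, were higher in oncogene livers on either diet. Cxcl9 had 5.40, 1.76 and 9.48 CPM in CD Vec and 16.0, 27.8 and 46.2 CPM in CD oncogene. It had 3.41, 3.89 and 2.56 CPM in LPD Vec and 25.4, 21.9 and 35.2 CPM in LPD oncogene. No oncogene mouse overlapped a vector mouse of its diet. The log2 fold change was 2.43 on CD (SE 0.51, adjusted p = 0.00365), 3.05 without CD Vec replicate 3, and 3.06 on LPD (SE 0.53, adjusted p = 0.0174).

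Cxcl10 had 1.27, 2.62 and 2.19 CPM in CD Vec and 5.23, 7.06 and 10.3 CPM in CD oncogene. On LPD it had 1.25, 1.61 and 0.718 CPM in vector livers and 4.40, 3.58 and 6.03 CPM in oncogene livers. The groups were again apart on both diets, with log2 fold changes of 1.89 on CD (SE 0.37, adjusted p = 0.00198) and 1.95 on LPD (SE 0.38, adjusted p = 0.0275). The interactions were 0.63 for Cxcl9 (SE 0.70, adjusted p = 0.615) and 0.06 for Cxcl10 (SE 0.50, adjusted p = 0.954). Between the oncogene livers of both diets neither passed, with log2 differences of -0.12 for Cxcl9 and -0.69 for Cxcl10. Cxcl11, the third gene of this set, did not pass in any comparison and lay between 1.40 and 4.28 CPM over all mice. RefSeq annotates Cxcl11 as a transcribed pseudogene in this genome build, and its span, like that of Cxcl10, overlaps that of Art3.

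Without LPD Vec replicate 1, 2 or 3, Ccl5 (adjusted p = 0.0517 to 0.069), Cxcl9 (0.0744 to 0.104) and Cxcl10 (0.064 to 0.139) all missed the threshold. Their log2 fold changes in LPD oncogene against LPD Vec stayed between 1.70 and 3.20 in every fit that left out 1 library. Cxcl10 also missed it without LPD oncogene replicate 1 (1.99, adjusted p = 0.0593) or replicate 3 (1.73, adjusted p = 0.0821).

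The windows around the starts of Cxcl9 and Cxcl10 are shown because these genes moved on both diets and are textbook interferon targets (RefSeq, GRCm38.p6, - strand, chr5:92328030-92328329 and chr5:92348840-92349139). Capitals mark matches to the letters GAAANNGAA, a core of the interferon-stimulated response element, and to the NF-κB consensus motif. Cxcl9 held the interferon element at -175 to -167 from the start. Cxcl10 held it at -213 to -205, and the NF-κB motif at -159 to -150 and at -103 to -94.
Cxcl9: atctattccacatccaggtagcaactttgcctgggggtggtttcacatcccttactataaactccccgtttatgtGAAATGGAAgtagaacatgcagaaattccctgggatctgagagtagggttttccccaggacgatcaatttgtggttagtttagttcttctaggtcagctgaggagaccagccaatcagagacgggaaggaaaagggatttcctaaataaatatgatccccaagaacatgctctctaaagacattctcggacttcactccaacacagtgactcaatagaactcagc
Cxcl10: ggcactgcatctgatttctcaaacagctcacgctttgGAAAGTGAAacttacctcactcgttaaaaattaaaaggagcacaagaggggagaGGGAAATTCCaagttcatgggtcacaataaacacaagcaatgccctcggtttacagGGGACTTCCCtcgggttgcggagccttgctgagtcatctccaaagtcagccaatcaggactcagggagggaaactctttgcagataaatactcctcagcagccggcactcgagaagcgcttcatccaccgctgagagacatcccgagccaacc

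On either strand, the interferon core letters were found in 8.56% of all 32851 windows, and in those of Ccl1, Ccl3, Ccl19, Ccr2, Cxcl9, Cxcl10, Cxcl14 and Cxcr1, which were 8 of the 38 genes with a window. The NF-κB motif was found in 4.51% of all windows and in 9 of the 38 genes, which were Ccl9, Ccl20, Ccl27a, Ccr3, Ccr6, Cxcl1, Cxcl2, Cxcl3 and Cxcl10. The letters TTCNNNGAA, to which STAT factors bind, were found in 8.30% of all windows and in Ccl17, Ccr6 and Cxcl14. Windows were at hand for 12 of the 18 genes that passed in any comparison. No match says only that the letters are not in this window.

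Cxcl16, a membrane-bound ligand of Cxcr6 on NKT cells, had 6.72, 4.61 and 8.02 CPM in CD Vec and 8.78, 10.7 and 9.21 CPM in CD oncogene. These groups did not overlap, but the difference of 0.57 (SE 0.23) did not pass (adjusted p = 0.0733). It had 4.99, 7.27 and 5.85 CPM in LPD Vec and 7.87, 7.65 and 10.5 CPM in LPD oncogene (log2 fold change 0.52, SE 0.23, adjusted p = 0.428).

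Among the receptors, Ccr1, Ccr2 and Cxcr4 were higher in CD oncogene livers, and Ccr1 and Ccr2 were lower in LPD than in CD oncogene livers. Ccr2, which monocytes carry into inflamed tissue, had 1.78, 1.19 and 1.77 CPM in CD Vec and 6.27, 7.14 and 2.62 CPM in CD oncogene. The groups did not overlap (log2 fold change 1.75, SE 0.37, adjusted p = 0.00344). LPD Vec held 1.01, 1.86 and 1.13 CPM and LPD oncogene 2.39, 2.11 and 2.27 CPM, where the difference of 0.75 did not pass (adjusted p = 0.506). Ccr2 was lower in LPD than in CD oncogene livers (difference -1.24 on the log2 scale, SE 0.36, adjusted p = 0.0294), a call lost without any 1 of 5 of these 6 libraries (all but CD oncogene replicate 3), at -1.28 to -0.98 and adjusted p = 0.0726 to 0.105. It was also lost with a replicate block (-1.18, adjusted p = 0.0531).

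Ccr1, a receptor of monocytes and neutrophils, had 0.357, 0.114 and 0.260 CPM in CD Vec and 3.61, 1.80 and 0.562 CPM in CD oncogene. The log2 fold change was 3.00 (SE 0.66, adjusted p = 0.00425), and 2.22 without replicate 1 of the latter (adjusted p = 0.0174). On LPD it lay between 0.127 and 0.394 CPM in all 6 mice. Ccr1 too had to be high in the CD oncogene livers to be tested. Ccr1 was lower in LPD than in CD oncogene livers (-2.60, SE 0.62, adjusted p = 0.0125), a call lost without CD oncogene replicate 1 (-1.83, adjusted p = 0.0512) or LPD oncogene replicate 2 (-2.33, adjusted p = 0.0552).

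Cxcr4, the receptor of Cxcl12, had 0.764, 0.739 and 0.625 CPM in CD Vec and 3.93, 2.28 and 2.43 CPM in CD oncogene (log2 fold change 2.02, SE 0.46, adjusted p = 0.00528). On LPD it had 0.240, 0.422 and 0.769 CPM in vector and 0.635, 1.93 and 1.88 CPM in oncogene livers, which overlapped (1.65, SE 0.49, adjusted p = 0.153).

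Ccr3, Ccr10, Cxcr3, Cxcr5 and Cxcr6 did not pass in any comparison, and none was above 1.04 CPM in any library. Ccr7, the lymph node homing receptor, had 1 to 15 counts and did not pass under the filter of 10 counts in 3 libraries. Cxcr2, the neutrophil receptor, was not tested and had 38, 11 and 3 counts in CD oncogene and 1 to 8 elsewhere. Ccr4, Ccr6 and Cxcr1 had at most 4 counts in any library, and Ccr9 had 2 to 11. Of the ligands not yet named, Cxcl17 had at most 10 counts in any library, Ccl28 at most 8, and Cxcl15 2 in all, while Ccl19, Ccl20, Ccl26 and Ccl27b had 1 each.

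Set beside their receptors, the ligands fell into different cases. Ccl2 and Ccl7 and their receptor Ccr2 were all higher in CD oncogene than in CD Vec, and all lower in LPD than in CD oncogene livers. The same held for Ccl6 and Ccr1. Of the other Ccr1 ligands in the fit, Ccl9 did not pass on CD, and Ccl5 did not pass between the oncogene livers. Ccl7, Ccl8, Cxcl13 and Ccr1 had to be high in CD oncogene livers to be tested, so their values are no support here. The calls of Ccr1 and Ccr2 between the oncogene livers were lost without single libraries, as given above. Ccl24 passed on CD while its receptor Ccr3 did not. Cxcl9 and Cxcl10 passed on both diets while Cxcr3 did not (log2 fold change -0.00 on CD, SE 0.45, and 0.77 on LPD, SE 0.45). Cxcl12 and Cxcr4 passed in opposite directions on CD. Cxcl13 passed on CD while Cxcr5 did not (0.53, SE 0.44, adjusted p = 0.381), and Ccl8 passed while its receptor Ccr8 had 0 counts in every library.

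Genes that are neighbours in the genome (GRCm38, that is mm10, RefSeq spans) did not all share their values. At chr11:82035577-82179812 lie Ccl2, Ccl7, Ccl11, Ccl12, Ccl8 and Ccl1, of which Ccl2, Ccl7 and Ccl8 passed on CD, Ccl12 had 13 counts over CD oncogene and 3 elsewhere, Ccl11 had 6 in all and Ccl1 had 0. At chr11:83525778-83664683 lie Ccl5, Ccl9, Ccl6, Ccl3 and Ccl4. Of these, Ccl5 was higher in oncogene livers on both diets, Ccl6 on CD, and Ccl9 on neither. At chr5:92321331-92363296 lie Cxcl9, Cxcl10 and Cxcl11, where Cxcl11, annotated as a transcribed pseudogene, did not pass. At chr9:123962126-124109140 lie Ccr1, Ccr3 and Ccr2, where Ccr3 did not pass on CD (log2 fold change -0.11, SE 0.71).

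Mouse by mouse, the CD oncogene livers were not alike. Replicate 1 had the highest level of all 12 mice for 8 of the 27 genes, among them Ccl6, Cxcl1, Cxcl13, Cxcl14, Ccr1 and Cxcr4. Replicate 2 was highest for 8, among them Ccl2, Ccl5, Ccl7, Ccl8 and Ccr2. Replicate 3 was highest for 3, which were Ccl9, Cxcl9 and Cxcl10. For the 15 genes higher on CD, replicate 3 was the lowest of the 3 oncogene mice in 11 and the highest in 2. LPD oncogene replicate 3 was highest of all mice for Cxcl12 and Cxcr3, among others. No LPD Vec mouse was highest for any of the 27 genes.

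CD oncogene replicate 3 is the only mouse of its group in run 2, so the order of these mice and the runs cannot be told apart. Run 1 holds no other group, so a term for the runs leaves the level of the CD oncogene group to replicate 3 alone. Such a term and the libraries of run 2 alone, given below, are therefore not separate checks on that group. With a term for the runs, 5 of the 16 calls on CD were kept (Ccl5, Ccl6, Cxcl9, Cxcl10 and Cxcl13), with 2 of 3 on LPD (Ccl5 and Cxcl9), 1 of 11 between the oncogene livers (Ccl9) and 0 of 3 interactions. Each direction stayed the same. Among the lost calls on CD, the log2 fold change with the term was 2.45 for Ccl2, 4.10 for Ccl7, 3.55 for Ccl4, 0.73 for Ccl24, 1.47 for Ccr1, 0.46 for Ccr2, 1.5 for Cxcr4, 1.82 for Cxcl14 and -0.98 for Cxcl12. Between the oncogene livers, the ligands lost their calls at -1.84 for Ccl2, -1.26 for Ccl6, -3.71 for Ccl7, -2.65 for Ccl8, -0.33 for Cxcl1, 0.82 for Cxcl12, -1.75 for Cxcl13 and -1.20 for Cxcl14, and the receptors at -0.78 for Ccr1 and -0.22 for Ccr2. Run 2 holds 1 CD Vec, 1 CD oncogene, 2 LPD Vec and 3 LPD oncogene libraries, so a fit of run 2 alone takes the spread from the LPD groups and assumes that the lone CD libraries vary like them. In that fit 5 of the 16 calls were kept (Ccl5, Ccl6, Cxcl9, Cxcl10 and Cxcl12), 2 of 3, 3 of 11 (Ccl6, Ccl9 and Cxcl12) and 0 of 3.

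Genes around this system were counted from lists chosen with earlier results of these data known. For each list the shares of all genes to read beside its counts are 18.7% higher and 16.7% lower on CD, 1.15% higher on LPD, and 11.3% lower between the oncogene livers. At 1.15%, a list of this size with 0 called on LPD shows no difference between the diets. Of 14 other chemokine system genes, 13 were tested, and on CD 6 were higher and 2 lower (Ackr4 and Dpp4), with 2 higher on LPD (Cx3cl1 and Xcr1). The 6 were Cx3cl1, the membrane-bound chemokine also called fractalkine (2.97, SE 0.43), its receptor Cx3cr1 (2.45, SE 0.41), the platelet chemokines Pf4 (2.97, SE 0.43) and Ppbp (3.10, SE 0.49), Ccrl2 and Cmklr1. Pf4, Ppbp, Cx3cr1 and Ccrl2 were also lower in LPD than in CD oncogene livers. The decoy receptor Ackr4, which removes Ccl19, Ccl21 and Ccl25, fell by 1.08 on CD, and Dpp4, a protease that trims Cxcl12 and Cxcl10, fell by 1.01.

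Of 16 genes of signalling below the receptors, 9 were higher on CD, 0 on LPD, and 2 (Gnai2 and Gnb1, G protein subunits) were lower in LPD than in CD oncogene livers. Of 16 genes of the NF-κB and cytokine list, 12 were tested, 6 were higher on CD (Icam1, Ltb, Nfkb2, Relb, Tnfaip3 and Vcam1), 0 on LPD, and 5 lower between the oncogene livers. Relb, an NF-κB subunit, had log2 fold changes of 2.16 on CD (SE 0.25) and -1.37 between the oncogene livers (SE 0.24), and an interaction of -1.58 (SE 0.34, adjusted p = 0.019). Tnf had at most 14 counts in any library. Of 12 genes of the interferon gamma pathway, 11 were tested, 5 were higher on CD and 2 on LPD. The 2 were the GTPase Gbp2 (1.71, SE 0.35, and 1.62, SE 0.35, on CD) and the receptor chain Ifngr1 (1.29, SE 0.19). Ifngr1 rose by 2.88 on CD (SE 0.20), was lower in LPD than in CD oncogene livers (-1.47, SE 0.18, adjusted p = 0.000604) and had an interaction of -1.59 (SE 0.26, adjusted p = 0.00624). Ifng itself, the cytokine, had 0 counts in 6 of 12 libraries and at most 4. The medians of the 4 lists on CD, in the order given, were 1.04, 0.87, 1.01 and 0.67, beside -0.01 for all genes.

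Among the marker lists of leukocytes, that of monocytes and recruited macrophages held the most genes that passed on CD. Of its 9 genes, 8 were higher on CD (18.7% of all genes) and 7 lower in LPD than in CD oncogene livers (11.3% of all genes). Of these 9, Chil3 was tested through the CD oncogene livers alone. Spp1, a secreted matrix protein that is also in the cholangiocyte list, made up most of the summed level in CD oncogene livers, with 368, 280 and 111 CPM there and 28.3 to 48.1 CPM elsewhere. The other 8 genes summed to 38.3, 23.4 and 48.6 CPM in CD Vec and 94.7, 72.0 and 93.7 CPM in CD oncogene livers. They summed to 35.2, 46.0 and 39.9 CPM in LPD Vec and 47.7, 66.7 and 81.7 CPM in LPD oncogene livers. Without Spp1 the CD groups were apart and the oncogene groups of both diets overlapped. This sum leans on Csf1r, which reached 1631 counts in a library, with Cd68 next at 646. The overlap of the sums therefore need not hold for the other genes of the list. The part of these cells in the values of Ccl2, Ccl6, Ccl7, Ccl8, Ccr1 and Ccr2 was not tested.

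**Figure D4:**
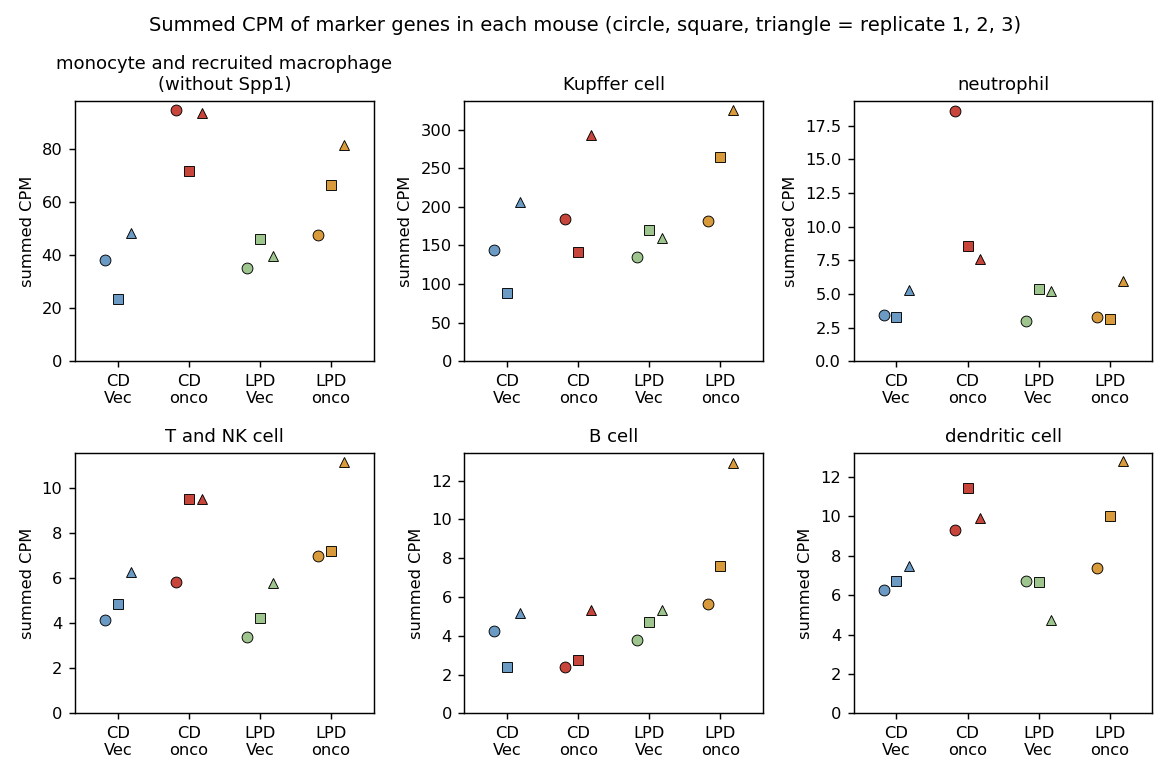
Summed CPM of marker genes of 6 cell types in each mouse, by group, with Spp1 left out of the first panel. The monocyte and recruited macrophage sum is 72.0 to 94.7 CPM in CD oncogene and 47.7 to 81.7 CPM in LPD oncogene livers, and T and NK cell markers overlap as well between the oncogene groups. The first sum leans on Csf1r, and by single genes 7 of the 9 in that list were lower in LPD than in CD oncogene livers.

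The 11 T and NK cell markers summed to 4.13 to 6.25 CPM in CD Vec and 5.81 to 9.51 CPM in CD oncogene, and to 3.41 to 5.80 CPM in LPD Vec and 6.99 to 11.2 CPM in LPD oncogene. Of the 9 tested, 2 were higher and 1 lower on CD, beside 18.7% and 16.7% of all genes, and 0 passed on LPD. Their part in Cxcl9, Cxcl10 and Ccl5, genes that these cells make or answer to, was not tested. Neutrophil markers summed to 7.60 to 18.6 CPM in CD oncogene, with replicate 1 the highest, and to 3.02 to 5.99 CPM elsewhere. Ly6g, which defines mature neutrophils, had 0 counts in 11 of 12 libraries. Of the 3 neutrophil genes tested, 2 were higher on CD (18.7% of all genes) and 2 lower between the oncogene livers (11.3%). In the interaction 2 were below 0 (4.42% of all genes). B cell markers were 2.37 to 5.35 CPM in CD oncogene and 2.39 to 5.15 CPM in CD Vec, where 0 of 5 passed while Cxcl13 did. They were 3.79 to 5.33 CPM in LPD Vec and 5.62 to 12.9 CPM in LPD oncogene livers, with 1 of 5 higher there than in CD oncogene livers, where Cxcl13 was lower on LPD. Dendritic cell markers were 9.33 to 11.4 CPM in CD oncogene and 6.27 to 7.50 CPM in CD Vec, with 1 of 6 higher, and 7.38 to 12.8 CPM in LPD oncogene and 4.72 to 6.72 CPM in LPD Vec, with 2 of 6 higher. Stellate cell and fibroblast markers were 181 to 504 CPM in CD oncogene and 74.5 to 146 CPM elsewhere, largely from Reln, Col1a1 and Col1a2. Of the 7 genes, 4 were higher and 1 lower on CD, and 4 were lower and 1 higher in LPD than in CD oncogene livers. The 1 gene that went the other way in each was Lrat, which marks quiescent stellate cells, with log2 differences of -1.42 (SE 0.29, adjusted p = 0.00293) and 1.26 (SE 0.29, adjusted p = 0.0114). Endothelial cell markers summed to 98.2 to 191 CPM for CD Vec, and to 101 to 161 CPM in CD oncogene, 122 to 207 CPM in LPD Vec and 144 to 189 CPM in LPD oncogene livers. Of these 6 genes, 0 were higher and 1 lower on CD, with a median log2 fold change of 0.19. That 1 was Clec4g, a gene of sinusoidal endothelial cells (-1.09, SE 0.18, adjusted p = 0.000695). In LPD against CD oncogene livers 1 of the 6 was higher and 0 lower (8.66% of all genes higher). In the interaction 1 was above 0 and 0 below (4.49% of all genes above). The part of these cells in the values of Cxcl12 was not tested. Without Spp1, the 4 other cholangiocyte markers summed to 10.1 to 13.3 CPM in CD oncogene livers and 5.68 to 10.5 CPM elsewhere.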

How the data were processed

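RNA-seq of liver tissue was deposited by the authors as 1 table of raw counts per gene, 1 column for each of 12 mice. Per the labels and the study's methods, reads were aligned to mm10 with HISAT2 and counted with featureCounts, without stated versions, strand setting or handling of multi-mapping reads. The labels name a ribosomal RNA depletion kit and the methods a stranded mRNA kit. Column names call the chow diet HPD. Groups were taken from the labels. Symbols were matched to Entrez IDs through RefSeq GRCm38.p6 (25275 genes) and GENCODE (18), and 1886 genes stayed without a symbol. The 54 genes and all lists were chosen with earlier results of these data known.

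Counts were fitted in R 4.3.3 with edgeR 4.0.16 (TMM factors of 0.864 to 1.12, filterByExpr, robust quasi-likelihood test with 1 coefficient per group over all 12 libraries). Benjamini-Hochberg adjustment ran over all 13947 genes tested, with calls at an adjusted p under 0.05. The standard error was taken from the log2 fold change and the F statistic. The biological coefficient of variation was 23.2%. Named with full values were genes called in at least 1 of 5 comparisons and the 10 of highest mean CPM. Of the genes this rule takes, 1 is counted in the totals but not reported here. The steps were tested on simulated data. Replicates are separate mice, and in 3 of the 4 groups they also fall in different runs, so p-values measure the spread between 3 mice per group, runs included. Intervals of count ratios are exact, at 95%, and cover counting error only, as does the floor of 3 counts. Alternatives were DESeq2 1.42.0, library totals, other filters, only the groups compared, a replicate block, a term for runs, and leaving out each library. The libraries of run 2 alone were added after seeing the data. Same-numbered mice of different groups had correlated deviations of -0.183 to 0.167, above 0.1 in 2 of 18 pairs, so the numbers were not taken to pair them. No 2 libraries of a group agreed within sampling noise (lowest chi-square per gene 29.1).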

Additional observations from a re-analysis of the deposited data

Results flagged for a closer look

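For 3 genes the effect of c-MET/β-catenin differed between the diets by the interaction term of the edgeR fit (Benjamini-Hochberg over all genes tested). The log2 difference, LPD minus CD, was -2.34 for Ccl6 (SE 0.53, adjusted p = 0.023), -3.79 for Cxcl13 (SE 0.79, adjusted p = 0.016) and 1.11 for Cxcl12 (SE 0.25, adjusted p = 0.0213). All 3 CD c-MET/β-catenin mice lay outside the range of the other 9 mice for each of these genes. With a term for the runs, or in run 2 alone, the level of that group rests on its replicate 3 alone. None of the 3 interactions passed with a term for the runs or in the libraries of run 2 alone. Without LPD Vec replicate 2, none of the 3 passed (edgeR adjusted p = 0.0713 for Ccl6, 0.066 for Cxcl12 and 0.0532 for Cxcl13). Cxcl13 reached 10 counts in 3 libraries through the CD oncogene livers alone, so it had to differ between the groups to be tested.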

How the results depend on the processing

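Over 33 called gene results and all alternatives, 574 of 657 values kept their call, 83 lost it and 0 turned direction. Leaving out 1 library kept 366 of 396. In the comparison on CD, 16 chemokine and receptor genes passed, 3 on LPD, 0 between the vector livers, 11 between the oncogene livers and 3 in the interaction. DESeq2 called 5 on LPD, 1 between the vector livers and 6 in the interaction. With a term for the runs, 5 passed on CD, 1 between the vector livers, 1 between the oncogene livers and 0 in the interaction. In the libraries of run 2 alone, an alternative added after seeing the data, these counts were 5, 1, 4 and 0. Leaving out 1 library gave 0 to 4 on LPD, 7 to 13 between the oncogene livers and 0 to 6 in the interaction. The term for the runs and the libraries of run 2 alone both leave the CD oncogene level to replicate 3.

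Over all genes, 4933 passed on CD, 184 on LPD, 43 between the vector livers, 2784 between the oncogene livers and 1243 in the interaction. DESeq2 called 497 on LPD, 339 between the vector livers and 2083 in the interaction, and library totals gave 66 between the vector livers. With only the groups compared, 3014 passed on CD, 505 on LPD and 3 between the vector livers. The term for the runs gave 945, 75, 16, 618 and 85 in the order above. The libraries of run 2 alone gave 1745 on CD, 136 between the vector livers, 1720 between the oncogene livers and 390 in the interaction. Leaving out 1 library gave 52 to 254 on LPD, 5 to 104 between the vector livers, 1585 to 3660 between the oncogene livers and 391 to 1404 in the interaction. The cause of these changes was not tested.

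With the replicate block, 16 genes passed over all genes between the vector livers and 812 in the interaction, and among the chemokine and receptor genes Ccr2 between the oncogene livers (adjusted p = 0.0531) and the interaction of Ccl6 (0.0503) lost their calls. With only the groups compared, Ccr2 (0.0627) and Cxcl14 (0.0555) between the oncogene livers lost theirs, among others (all by edgeR). Depth limited Ccl4, Ccl7, Ccl8 and Cxcl13 in vector livers and the 24 genes that fell short of 10 counts in 3 libraries.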
